A study of Mus musculus with 6 samples.

Results

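The 10 genes described here encode the collagens and nidogens of basement membranes: the collagen IV chains Col4a1 to Col4a6, the multiplexin collagens Col15a1 and Col18a1, and the nidogens Nid1 and Nid2. They were taken by symbol from the 31053 genes counted in single-cell RNA sequencing of stromal vascular cells from mouse inguinal white adipose tissue (iWAT), and all 10 symbols were found once. The cells came from male C57BL/6 mice of 9 weeks (young) or 57 weeks (aged), with no other allele or agent named for either group, that were kept at thermoneutrality (TN, 30 °C) or moved to 6 °C for the last 3 days (3D) or 14 days (14D). Each combination of age and temperature was sequenced as 1 library, so there were 6 libraries, 3 per age and 2 per temperature condition. All mice had first been acclimated to 30 °C, and CD45+ immune cells had been removed by sorting from every library. The study's methods state that cells of different mice were kept apart unless pooling is indicated, and indicate none for these libraries. Whether the C57BL/6JN or the C57BL/6J colony supplied a library is not given in the sources used here, so supplier could not be separated from age here and p-values measure only the spread between these libraries.

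Basement membranes are thin sheets of extracellular matrix that lie under the endothelium, surround mural cells and Schwann cells, and wrap each adipocyte. Collagen IV chains join as trimers and then crosslink into a network. The chains of Col4a1 and Col4a2 form the trimer found in nearly all basement membranes, those of Col4a3, Col4a4 and Col4a5 form the trimer known from the kidney glomerulus, and those of Col4a5 and Col4a6 are known from the sheath of smooth muscle. Nidogens bind both laminin and collagen IV and so connect the separate networks, while collagens XV and XVIII sit where the basement membrane meets the surrounding matrix, and the end of the collagen XVIII chain is released as endostatin.

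The collagen IV genes lie head to head in pairs (GENCODE annotation of GRCm38). Col4a1 (ENSMUSG00000031502) at chr8:11198423-11312826 on the minus strand and Col4a2 (ENSMUSG00000031503) at chr8:11312805-11449287 on the plus strand overlap by 22 bases at their first exons. Col4a3 (ENSMUSG00000079465) at chr1:82586921-82722059 on the plus strand starts 72 bases from Col4a4 (ENSMUSG00000067158) at chr1:82448423-82586849. Col4a5 (ENSMUSG00000031274) at chrX:141475385-141689234 on the plus strand starts 1309 bases from Col4a6 (ENSMUSG00000031273) at chrX:141165403-141474076. The other members lie apart, with Col15a1 (ENSMUSG00000028339) at chr4:47208161-47313167, Col18a1 (ENSMUSG00000001435) at chr10:77052178-77166548, Nid1 (ENSMUSG00000005397) at chr13:13437551-13512269 and Nid2 (ENSMUSG00000021806) at chr14:19751265-19811787. The counts come from the 3' ends of transcripts, which lie far from the shared starts.

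RefSeq promoter windows (GRCm38.p6, 300 bases from 250 before to 50 after a start) were found for 8 of the 10 members. The 2 windows of the Col4a1 and Col4a2 pair are printed because these genes start from overlapping sequence and were called together in the vascular classes below. Each is given 5' to 3' on its own gene's strand (Col4a1 chr8:11312777-11313076, minus; Col4a2 chr8:11312555-11312854, plus), and capitals mark the 78 bases, chr8:11312777-11312854, that both windows hold, read from opposite strands.
Col4a1: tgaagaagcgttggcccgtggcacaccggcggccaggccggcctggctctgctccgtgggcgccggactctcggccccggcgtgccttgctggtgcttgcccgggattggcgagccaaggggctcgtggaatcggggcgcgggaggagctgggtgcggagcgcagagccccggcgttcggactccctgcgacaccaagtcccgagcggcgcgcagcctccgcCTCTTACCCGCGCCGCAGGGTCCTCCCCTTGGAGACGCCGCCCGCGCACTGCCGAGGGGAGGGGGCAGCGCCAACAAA
Col4a2: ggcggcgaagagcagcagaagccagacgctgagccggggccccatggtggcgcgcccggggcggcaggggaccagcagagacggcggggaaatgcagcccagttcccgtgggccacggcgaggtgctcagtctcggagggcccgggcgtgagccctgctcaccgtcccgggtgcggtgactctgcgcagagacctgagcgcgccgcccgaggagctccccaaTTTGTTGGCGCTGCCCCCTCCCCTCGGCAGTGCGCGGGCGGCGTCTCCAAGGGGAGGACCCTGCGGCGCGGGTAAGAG
The shared stretch is 73.1% G or C and holds 1 GC box (GGGCGG, either strand), a motif found in 35.7% of the 32851 windows of all genes. The letters TATAAA (either strand) were in 13.6% of all windows and in none of the 9 windows of the members.

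Cells were placed in classes by how many of 10 marker genes per class they expressed, and no member was a marker. After limits on genes and mitochondrial reads per barcode, 56848 of 68103 barcodes were kept, with 47844 fibroblasts, 4156 endothelial cells, 1930 mural cells (pericytes and smooth muscle cells together), 134 Schwann cells and 313 remaining immune cells. Among fibroblasts, 20827 were Dpp4+ fibroblasts, 12667 were Icam1+ preadipocytes and 2985 were Cd142+ fibroblasts, the 3 ASPC populations of the study. Library totals ran from 52068837 to 88508349 UMIs (molecular barcodes that tag single transcripts). The aged 14D cold library stood apart, with a median of 2588 UMIs per barcode against 6232 to 8954 in the other 5, and with fibroblast markers at 293 to 922 summed CPM over the endothelial cells of the 6 libraries, the highest value in that library. Results that change without it are given with their value without it. Between 19 and 34 cell barcodes were shared by any 2 libraries. Levels below are CPM, the UMIs of a gene in a class and library scaled to all UMIs of that class in the library, and since a 3' count depends on how well each transcript's end is captured, levels are compared between classes and conditions, not between genes.

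Col4a1 and Col4a2 were found in fibroblasts, endothelial cells, mural cells and Schwann cells, and among these whole classes both had their highest mean of 6 libraries in fibroblasts. The order did not hold for each part of a class: Col4a1 was at 188 to 305 CPM in Dpp4+ fibroblasts and at 905 to 2690 CPM in pericytes. The Col4a1 level in fibroblasts was 1664, 1856 and 1448 CPM in the young TN, 3D and 14D libraries and 2332, 1459.7 and 1503 CPM in the aged ones. It was 753, 727 and 1071 CPM in young and 577, 456 and 786 CPM in aged endothelial cells. In mural cells it was 654, 873 and 1106 CPM in young and 589.9, 546 and 637 CPM in aged libraries. No library of the other 3 classes reached the lowest fibroblast value. In edgeR's test over 24 sums with library as a term, Col4a1 was 2.91-fold higher in fibroblasts than in endothelial cells (log2 fold change 1.54 ± 0.14, SE, adjusted p = 2.2e-10) and 2.81-fold higher than in mural cells (adjusted p = 5.55e-10). Endothelial and mural cells differed by -0.047 on the log2 scale, which did not pass the test (adjusted p = 0.799). In Schwann cells Col4a1 was at 607, 833 and 905 CPM in young and 399, 508 and 703 CPM in aged libraries, which overlapped both vascular classes. The differences of endothelial and mural from Schwann cells passed (log2 0.62 and 0.67), but both calls were lost with DESeq2 (adjusted p = 0.102 and 0.0720) and with RLE size factors (adjusted p = 0.0924 and 0.0661).

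Col4a2 was also highest in fibroblasts as a mean of 6 libraries, by smaller steps and not in every library. In the young 14D library it was at 577 CPM in fibroblasts, 676 CPM in endothelial cells and 591 CPM in mural cells. Its level was 577 to 912 CPM in fibroblasts, 299 to 676 CPM in endothelial cells, 269 to 591 CPM in mural cells and 104 to 413 CPM in Schwann cells. It was 1.84-fold higher in fibroblasts than in endothelial cells (log2 0.88 ± 0.16, adjusted p = 1.72e-05). The number of Col4a1 UMIs per Col4a2 UMI was 2.29 to 2.72 in the fibroblasts of the 6 libraries, 1.51 to 1.65 in endothelial cells and 1.69 to 2.19 in mural cells. The ranges of these 3 classes did not touch for fibroblasts against either vascular class, whereas those of mural and Schwann cells (1.85 to 3.85, from few UMIs) overlapped. The ratio is a difference between classes on the UMI scale and not a count of chains per trimer.

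The other collagen IV chains were each limited to fewer classes. Col4a3 was found mainly in fibroblasts, at 14.4, 25.8 and 11.9 CPM in young and 17.9, 19.7 and 11.3 CPM in aged libraries, against 0 to 2.66 CPM in endothelial and 1.67 to 3.50 CPM in mural cells. Col4a4, its neighbour on chromosome 1, was at 71.1, 76.1 and 51.6 CPM in young and 89.9, 66.3 and 53.2 CPM in aged fibroblasts and at 0 to 3.32 CPM in endothelial cells. Both were higher in fibroblasts than in endothelial cells, by log2 3.79 ± 0.24 for Col4a3 and 5.58 ± 0.21 for Col4a4 (adjusted p = 2.99e-12 and 6.87e-19). Col4a5 was shared by fibroblasts (22.5 to 85.5 CPM) and mural cells (32.9 to 64.1 CPM), which did not differ past the threshold (log2 0.18 ± 0.16, adjusted p = 0.324), and it was at 1.09 to 4.15 CPM in endothelial cells. Col4a6 was higher in mural cells than in fibroblasts in each of the 6 libraries, at 13.3, 3.39 and 2.80 CPM in young and 8.54, 13.5 and 6.67 CPM in aged libraries, against 0.487 to 1.46 CPM in fibroblasts (log2 -2.80 ± 0.37 for fibroblasts against mural cells, adjusted p = 7.01e-07). In all, 1 Col4a6 UMI was counted in endothelial cells. In Schwann cells Col4a3, Col4a5 and Col4a6 had 0 UMIs in all 6 libraries, where a count of 0 allows 23.9 to 78.1 CPM per library. Over the 450964 UMIs of all Schwann cells the limit is 6.65 CPM, so Col4a5 was at least 7.94-fold higher in fibroblasts and at least 7.65-fold higher in mural cells, and Col4a3 was at least 2.58-fold higher in fibroblasts.

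Of the multiplexins, Col15a1 was a gene of fibroblasts, endothelial cells and Schwann cells. It was at 459, 489 and 453 CPM in young and 533, 278 and 285 CPM in aged fibroblasts, and at 169, 152 and 191 CPM in young and 123, 50.9 and 99.7 CPM in aged endothelial cells. In mural cells it was at 3.38 to 15 CPM. Every endothelial library was above every mural library, with a log2 difference of 4.48 ± 0.22 (adjusted p = 5.77e-16). Col18a1, the endostatin precursor, had a different order, although fibroblasts were above endothelial cells for both genes. It was at 246, 201 and 274 CPM in young and 168, 127 and 158 CPM in aged mural cells, at 168 to 599 CPM in Schwann cells, at 66.9 to 116 CPM in fibroblasts and at 30.5 to 48.9 CPM in endothelial cells. Mural cells exceeded endothelial cells by 5.47-fold (log2 -2.45 ± 0.15 for endothelial against mural cells, adjusted p = 7.26e-14), while mural and Schwann cells did not differ past the threshold (log2 -0.062 ± 0.21, adjusted p = 0.862).

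Nid1 was highest in fibroblasts, at 1501, 1425 and 1396 CPM in young and 1155, 1062 and 1111 CPM in aged libraries. Its levels elsewhere were 121 to 178 CPM in endothelial cells, 67.3 to 220.3 CPM in mural cells and 136 to 426 CPM in Schwann cells. These 3 lower classes overlapped, and none of the differences among them passed the test (adjusted p = 0.655, 0.872 and 0.694). This depended on the cell limits. Within 3 median absolute deviations per library, the limits first planned, Nid1 was lower in endothelial than in mural cells (log2 -0.76, adjusted p = 0.00023). Under these limits it was also higher in mural than in Schwann cells (log2 0.70, adjusted p = 0.0147). Nid2 was highest in Schwann cells and fibroblasts. It was at 255, 127 and 239.7 CPM in young and 79.8, 208 and 104 CPM in aged Schwann cells, at 44.5 to 87.8 CPM in fibroblasts, at 8.72 to 28.9 CPM in endothelial cells and at 4.999 to 14.0 CPM in mural cells. Schwann cells exceeded endothelial cells (log2 -2.70 ± 0.36 for endothelial against Schwann cells, adjusted p = 5.28e-07), but not fibroblasts past the threshold (log2 -0.62 ± 0.30 for fibroblasts against Schwann cells, adjusted p = 0.106).

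**Figure D1:**
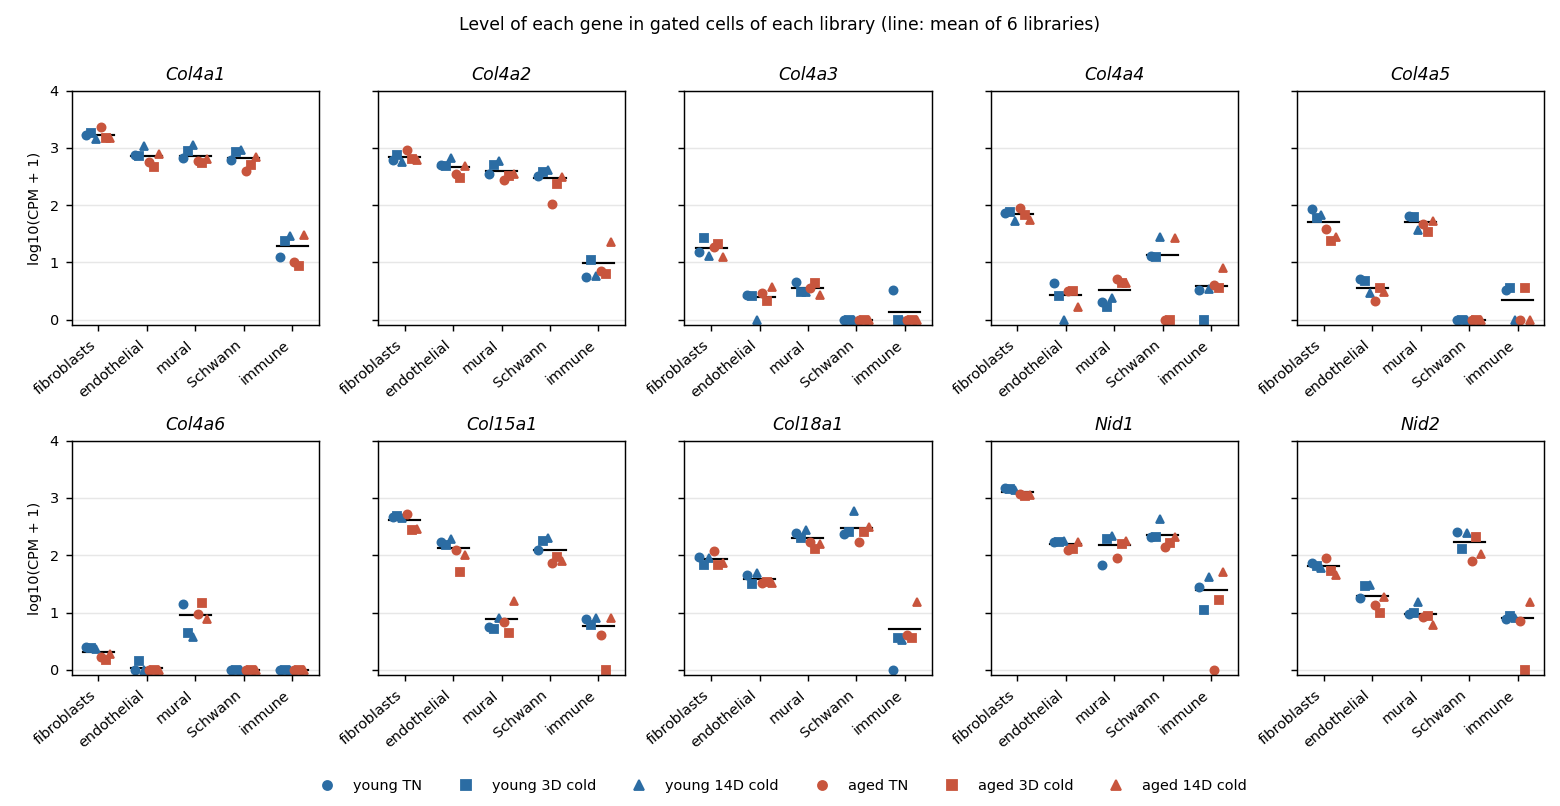
Level of each member as log10(CPM + 1) in the fibroblasts, endothelial, mural, Schwann and immune cells of each library, with a line at the mean of 6 libraries. Col4a1 and Nid1 are highest in fibroblasts, Col4a6 in mural cells, and Col18a1 is higher in mural and Schwann cells than in endothelial cells.

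Most genes differ between such classes, so the counts of members are given only with that background. Between fibroblasts and endothelial cells 10 of 10 members passed the test, where 74.3% of the 12184 genes tested did, and all 10 were higher in fibroblasts. Between fibroblasts and mural cells 9 of 10 passed (background 68.9%), with Col4a6 and Col18a1 higher in mural cells. Between fibroblasts and Schwann cells 8 of 10 passed (background 38.3%), with Col18a1 higher in Schwann cells. For endothelial against mural cells the count was 5 of 10 (background 60.9%), for endothelial against Schwann cells 4 of 10 (background 37.2%) and for mural against Schwann cells 5 of 10 (background 34.5%). Nothing particular to the members is read from these shares.

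Within fibroblasts the members split by subset. Col4a1 was at 305, 247 and 253 CPM in young and 262, 188 and 227 CPM in aged Dpp4+ fibroblasts. In Icam1+ preadipocytes, the committed precursors, it was at 3814, 3764 and 3314 CPM in young and 3856, 2968 and 3695 CPM in aged libraries. In Cd142+ fibroblasts it was at 1602, 1547 and 1584 CPM in young and 1544, 828 and 1432 CPM in aged libraries. The 3 subsets did not overlap in any library, and Icam1+ preadipocytes were 15.1-fold above Dpp4+ fibroblasts (log2 -3.92 ± 0.087 for Dpp4+ against Icam1+, edgeR over 18 sums with library as a term, adjusted p = 1.66e-16). Col4a2 had the same order, at 65.7 to 93.8 CPM in Dpp4+, 1331 to 1534 CPM in Icam1+ and 359 to 685 CPM in Cd142+ cells (log2 -4.19 ± 0.094 for Dpp4+ against Icam1+). Col15a1 had the widest gap of the members, at 15.9 to 32.1 CPM in Dpp4+ and 611 to 1192 CPM in Icam1+ cells, a 37.6-fold difference (log2 -5.23 ± 0.13, adjusted p = 6.23e-16).

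The remaining members were less uniform. Col18a1, Nid2, Col4a3 and Col4a4 were also higher in Icam1+ preadipocytes than in Dpp4+ fibroblasts, with log2 differences of -2.36, -2.07, -3.29 and -1.83 for Dpp4+ against Icam1+. Nid1 went the other way by a small step, at 1156 to 1749.5 CPM in Dpp4+ and 1071 to 1320.3 CPM in Icam1+ cells (log2 0.19 ± 0.079, adjusted p = 0.0444), and this call was lost without the young TN, young 3D or young 14D library (log2 0.13 to 0.15, adjusted p = 0.146 to 0.196), with DESeq2 (adjusted p = 0.0771) and with RLE size factors (adjusted p = 0.0693). Young libraries did not overlap between the 2 subsets (1749.5, 1733 and 1653 CPM in Dpp4+ against 1320.3, 1249 and 1182 CPM in Icam1+ cells), whereas aged ones did (1157, 1156 and 1205 against 1232, 1071 and 1163 CPM). Against Cd142+ fibroblasts (477 to 731 CPM) the Nid1 difference was larger, log2 1.10 ± 0.081 (adjusted p = 2.66e-09). Col4a5 did not differ past the threshold between Dpp4+ and Icam1+ cells (log2 0.38 ± 0.17, adjusted p = 0.0539), while Col4a6 was higher in Dpp4+ cells (log2 1.99 ± 0.27, adjusted p = 3.3e-06) at no more than 1.85 CPM. In counts, 9 of 10 members passed between Dpp4+ and Icam1+ cells (background 68.5%), 8 of 10 between Dpp4+ and Cd142+ cells (background 52.5%) and 8 of 10 between Icam1+ and Cd142+ cells (background 37.6%), where all 8 were higher in Icam1+ cells.

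Mural cells were likewise made of unlike parts. Nid1 was at 262, 464 and 582 CPM in young and 298, 374 and 413 CPM in aged pericytes and at 48.1, 58.7 and 81.4 CPM in young and 48.7, 58.9 and 83.9 CPM in aged smooth muscle cells, so that every pericyte value was above every smooth muscle value. Col4a1 was also higher in pericytes (905 to 2690.2 CPM) than in smooth muscle cells (377 to 584 CPM). Col4a5 and Col18a1 were the other way in every library, without overlap for Col4a5 and with overlap for Col18a1, with Col4a5 at 0 to 12.7 CPM in pericytes and 45.1 to 86.0 CPM in smooth muscle cells and Col18a1 at 80.1 to 242 and 153 to 279.9 CPM. Col4a6, the partner chain of Col4a5 in smooth muscle, was at 4.07 to 20.1 CPM in smooth muscle cells, and 1 pericyte library held any UMI of it. These parts hold few cells (49 to 123 pericytes and 77 to 406 smooth muscle cells per library) and were not tested against each other.

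**Figure D2:**
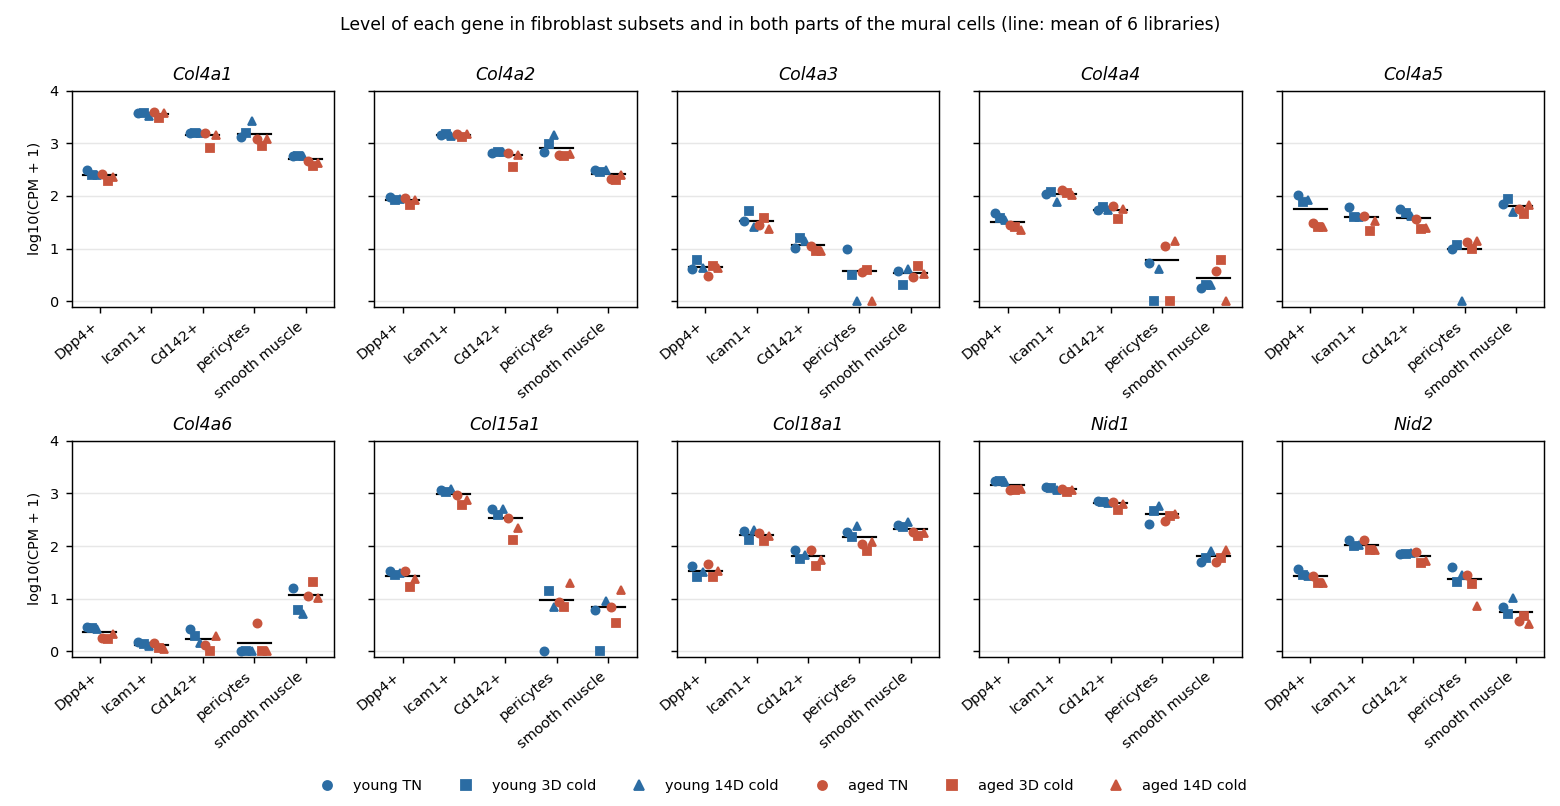
Level of each member as log10(CPM + 1) in Dpp4+, Icam1+ and Cd142+ fibroblasts and in the pericytes and smooth muscle cells of each library, with a line at the mean of 6 libraries. Col4a1, Col4a2 and Col15a1 are far higher in Icam1+ than in Dpp4+ cells, while Nid1 is slightly higher in Dpp4+ cells, and Col4a5 and Col4a6 are higher in smooth muscle cells than in pericytes.

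Whether the levels differed between ages was tested in each class over 6 sums, 3 aged and 3 young, in a model that also held temperature, so that 2 residual degrees of freedom were left. In this model a library whose partner of the same temperature is left out no longer bears on the age effect. Leaving out the young or the aged library of a temperature therefore gives nearly the same age estimate. The 6 fits without 1 library thus amount to 3 for age, and a lost call cannot be tied to the young or the aged library alone. Averaged over temperatures, aged Dpp4+ fibroblasts had lower levels of 7 of the 10 members, with 9.15% of all genes tested called lower and 17.9% called in either direction. The median log2 fold change of the 10 members was -0.45, against -0.0009 for all genes tested. Col4a5 had the largest change of the members. It was at 103, 76.3 and 82.6 CPM in young TN, 3D and 14D libraries and at 29.2, 24.8 and 24.3 CPM in aged ones. The lowest young library was over the highest aged library, and the fall was 3.39-fold (log2 -1.76 ± 0.069, adjusted p = 2.19e-08). Col4a6, its partner gene on the X chromosome, was at 1.85, 1.81 and 1.67 CPM in young and 0.817, 0.734 and 1.14 CPM in aged cells (log2 -1.02 ± 0.24, adjusted p = 0.0107), at a low level in every library.

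Nid1 was at 1749.5, 1733 and 1653 CPM in young and 1157, 1156 and 1205 CPM in aged Dpp4+ fibroblasts. The ages did not overlap, and the 3 libraries of each age lay close together (log2 -0.58 ± 0.063, adjusted p = 5.95e-05). Col4a4 was at 45.7, 38.0 and 33.8 CPM in young and 26.7, 24.9 and 21.2 CPM in aged cells, again without overlap (log2 -0.72 ± 0.067, adjusted p = 1.73e-05). Nid2 was at 36.3, 27.2 and 26.2 CPM in young and 26.5, 19.3 and 19.1 CPM in aged cells, where the aged TN library lay within the young range and each aged library was lower at its own temperature (log2 -0.50 ± 0.065, adjusted p = 0.000226). Smaller falls passed the test for Col15a1 (log2 -0.40 ± 0.11, adjusted p = 0.0232) and for Col4a1 (log2 -0.29 ± 0.06, adjusted p = 0.00594). The fall of Col15a1 was an average over temperatures: aged against young by CPM, it was level at TN (log2 0.0029) and lower at 3D and 14D (-0.75 and -0.39). Col4a2, Col4a3 and Col18a1 did not pass (log2 -0.17 ± 0.064, -0.39 ± 0.15 and 0.044 ± 0.066, adjusted p = 0.0864, 0.0943 and 0.709). The calls of Col4a5, Nid1, Nid2 and Col4a4 stood in all 6 fits that left out 1 library, while Col4a1 lost its call without the young 3D or aged 3D library (log2 -0.24, adjusted p = 0.0955 to 0.0982), Col15a1 without the young 3D or aged 3D library (log2 -0.24, adjusted p = 0.222 to 0.234) and Col4a6 without the young 3D or aged 3D library (log2 -0.88, adjusted p = 0.103 to 0.111) and with DESeq2 (adjusted p = 0.111). The 10 markers that define Dpp4+ fibroblasts were also lower in these aged cells, at 6935 to 7341 summed CPM against 7548 to 9076 in young ones, and their part in the falls was not tested.

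In aged Icam1+ preadipocytes 2 of the 9 members tested were lower, where 5.44% of all genes tested were called lower and 12.2% in either direction. Col15a1 was at 1162, 1082 and 1192 CPM in young and 932, 611 and 764 CPM in aged cells. All aged libraries were below all young ones (log2 -0.58 ± 0.095, adjusted p = 0.00503). Col4a5 was at 60.0, 38.5 and 38.3 CPM in young and 41.0, 20.9 and 32.5 CPM in aged cells, with overlap between ages but a lower aged value at each temperature (log2 -0.55 ± 0.11, adjusted p = 0.00994), and its call was lost without the young 3D library (log2 -0.42, adjusted p = 0.06). Nid1 differed by log2 -0.11 ± 0.081 (adjusted p = 0.448) and Col4a1 by -0.047 ± 0.12 (adjusted p = 0.843), neither past the threshold. The median of the 9 tested members was -0.18, against -0.0046 for all genes tested.

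Aged Cd142+ fibroblasts showed the same 2 members lower among 9 tested, beside 4.46% of all genes called lower and 9.75% in either direction. Col15a1 was at 510.2, 387 and 497 CPM in young and 338, 128 and 216 CPM in aged cells, a 2.13-fold fall without overlap (log2 -1.09 ± 0.12, adjusted p = 5.38e-06). Markers of Icam1+ preadipocytes, the subset in which Col15a1 was highest, were lower in these aged cells as a sum over the 10 genes. The sum was 2473 to 3091 against 3359 to 3749.9 CPM, and its part was not tested. Col4a5 was at 55.5, 45.6 and 41.2 CPM in young and 36.3, 22.5 and 23.3 CPM in aged cells, also without overlap (log2 -0.78 ± 0.12, adjusted p = 0.000236). Both calls stood in all 6 fits that left out 1 library. Col4a1 and Col4a2 differed by log2 -0.34 ± 0.12 and -0.34 ± 0.12 and did not pass (adjusted p = 0.0857 and 0.0962), and they did without the aged 14D library (log2 -0.45, adjusted p = 0.0412, and log2 -0.43, adjusted p = 0.0438). The median of the 9 tested members was -0.34, against -0.0028 for all genes.

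Over all fibroblasts together 3 of 10 members were lower with age, Col4a5, Col4a6 and Nid1, where 5.27% of all genes tested were called lower and 10.9% in either direction. Col4a5 was at 85.5, 58.6 and 65.5 CPM in young and 36.8, 22.5 and 26.5 CPM in aged fibroblasts, a 2.47-fold fall without overlap (log2 -1.31 ± 0.054, adjusted p = 0.000285). The fall of Nid1 was log2 -0.38 ± 0.07 (adjusted p = 0.0215) and that of Col4a6 -1.08 ± 0.21 (adjusted p = 0.0276); Nid1 lost its call without the young 3D, young 14D, aged 3D or aged 14D library (log2 -0.39 to -0.38, adjusted p = 0.0986 to 0.129) and Col4a6 without the young 3D, young 14D, aged 3D or aged 14D library (log2 -1.29 to -0.90, adjusted p = 0.0529 to 0.158). Col4a1 and Col4a2 had positive values that did not pass, 0.058 ± 0.15 and 0.15 ± 0.14. The median of the 10 members was -0.11, against -0.0029 for all genes. The gated make-up of the fibroblasts differed with age, with Dpp4+ cells at 43.8% to 52.2% of young and 30.1% to 41.0% of aged fibroblasts. Fibroblasts in no subset were 19.7% to 21.4% of young and 22.3% to 32.4% of aged ones, highest in the aged 14D library. The gates count detected markers, and the part of depth in these shares was not tested. The study, which clustered its cells, reports no dramatic shift with age in the proportions of these ASPC types. The subsets differ in these genes as described above, so values over all fibroblasts also carry the shares of the subsets, whose part was not tested.

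In aged endothelial cells both chains of the common collagen IV trimer and Col15a1 were lower. These were 3 of the 6 members with enough counts to test, where 0.850% of all genes were called lower and 1.66% in either direction. Col4a1 was at 753, 727 and 1071 CPM in young and 577, 456 and 786 CPM in aged TN, 3D and 14D libraries. Col4a2 was at 493, 482 and 676 CPM in young and 349.9, 299 and 476 CPM in aged libraries. Each aged library was lower than the young library of the same temperature, and across temperatures the aged 14D library was above 2 young libraries for Col4a1 and just below them for Col4a2. The falls were 1.37-fold for Col4a1 (log2 -0.45 ± 0.081, adjusted p = 0.0122) and 1.43-fold for Col4a2 (log2 -0.52 ± 0.081, adjusted p = 0.00603). Col15a1 was at 169, 152 and 191 CPM in young and 123, 50.9 and 99.7 CPM in aged endothelial cells, without overlap (log2 -0.90 ± 0.15, adjusted p = 0.00826). Nid2 had a change of similar size that did not pass (log2 -0.87 ± 0.23, adjusted p = 0.0781). Smaller changes that did not pass were those of Nid1 (log2 -0.29 ± 0.094, adjusted p = 0.157) and Col18a1 (log2 -0.27 ± 0.16, adjusted p = 0.474). Col4a1 lost its call without the young 3D, young 14D, aged 3D or aged 14D library (log2 -0.47 to -0.38, adjusted p = 0.0681 to 0.142), Col4a2 without the aged 3D library (log2 -0.46, adjusted p = 0.0519) and Col15a1 without the young 14D or aged 14D library (log2 -0.89, adjusted p = 0.0604 to 0.0663) and with DESeq2 (log2 -0.94, adjusted p = 0.215). Fibroblast markers summed to 415 to 451 CPM in young and 293 to 922 CPM in aged endothelial cells, with the highest value in the aged 14D library, and their part was not tested. The median of the 6 tested members was -0.48, against -0.001 for all genes.

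Aged mural cells had lower Col4a1, Col4a2 and Col18a1, 3 of the 8 members tested, where 0.912% of all genes were called lower and 2.75% in either direction. Col4a1 was at 654, 873 and 1106 CPM in young and 589.9, 546 and 637 CPM in aged mural cells. Col4a2 was at 348, 496 and 591 CPM in young and 269, 322 and 347 CPM in aged mural cells, and Col18a1 at 246, 201 and 274 and 168, 127 and 158 CPM. All aged libraries were below all young ones for each of the 3 genes, with log2 fold changes of -0.51 ± 0.099, -0.56 ± 0.097 and -0.64 ± 0.11 (adjusted p = 0.00419, 0.00156 and 0.00113). The same direction held within both parts of the class: Col18a1 was at 188, 145 and 242 CPM in young and 106, 80.1 and 121 CPM in aged pericytes and at 252, 224 and 279.9 CPM in young and 181, 153 and 175 CPM in aged smooth muscle cells. Col4a1 was at 1326, 1571 and 2690.2 CPM in young and 1213, 905 and 1220.4 CPM in aged pericytes and at 584, 564 and 571 CPM in young and 462, 377 and 417 CPM in aged smooth muscle cells. Markers moved with age in both parts: in smooth muscle cells the smooth muscle markers were at 20563 to 22668 summed CPM in aged and 23867 to 26533 in young libraries and the mural markers at 4885 to 5285 and 5775 to 5867, and in pericytes the dissociation response was at 28229 to 32691 in aged and 17112 to 27268 in young libraries. Their part was not tested. Nid1 did not pass (log2 -0.031 ± 0.13, adjusted p = 0.955). Col4a1 lost its call without the young 14D or aged 14D library (log2 -0.39, adjusted p = 0.0862 to 0.0906) and with DESeq2 (adjusted p = 0.0632), whereas Col4a2 and Col18a1 kept theirs in all 6 fits that left out 1 library. All 3 calls were lost when cells were kept within 3 median absolute deviations per library, the limits first planned, which leave 21.4% of mural barcodes against 56.4% here, and when cells were thinned to equal depth and number. The dissociation response was higher in aged mural cells as a sum over its 10 genes, at 21536 to 22842 against 18755 to 19950.4 CPM, and its part was not tested. The median of the 8 tested members was -0.40, against 0.0062 for all genes.

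Schwann cells were too few for a test of age (15 to 35 per library). Their Col4a1 level was 607, 833 and 905 CPM in young and 399, 508 and 703 CPM in aged libraries, and their Col15a1 level 121, 173 and 199.7 and 71.8, 92.4 and 78.1 CPM. For Col15a1 the aged values all lay below the young ones, and for Col4a1 the ages overlapped.

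**Figure D3:**
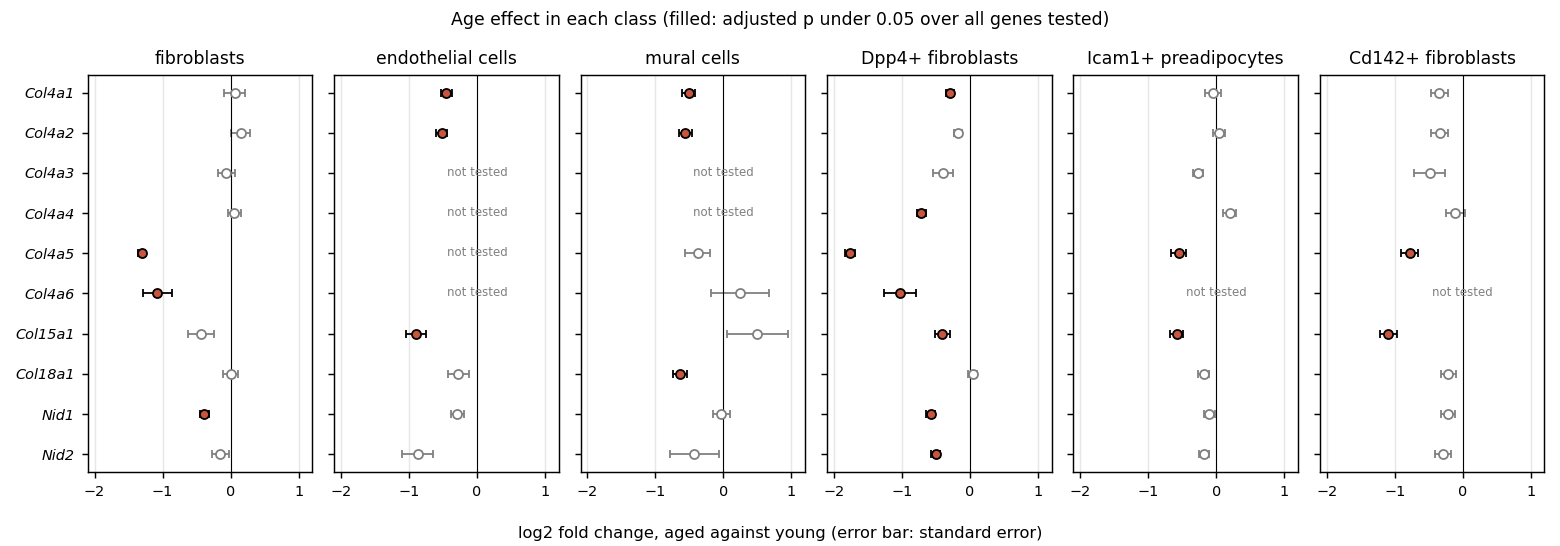
Log2 fold change of each member, aged against young, with its standard error, in 6 classes (edgeR, 3 libraries per age with temperature as a term). Filled points passed an adjusted p of 0.05, all of them to the left of 0: 7 in Dpp4+ fibroblasts, 3 each in fibroblasts, endothelial cells and mural cells, and 2 each in Icam1+ preadipocytes and Cd142+ fibroblasts.

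Whether an age effect differed between classes was tested directly, with library as a term. Unlike the tests within a class, this model held no term for temperature effects that differ between classes. Such differences count as spread in it, so a difference of age effects that does not pass here may be missed. Between Dpp4+ fibroblasts and Icam1+ preadipocytes 3 of 10 members passed, where 2.16% of all genes did. The fall of Col4a5 was larger in Dpp4+ cells by 1.22 ± 0.17 on the log2 scale (adjusted p = 0.00581). Col4a4 fell in Dpp4+ cells and had 0.20 ± 0.091 in Icam1+ cells, at 110.3, 119 and 75.4 CPM in young and 129, 111 and 102 CPM in aged libraries, a difference between the 2 effects of 0.93 ± 0.13 (adjusted p = 0.00648). For Nid1 the difference was 0.48 ± 0.092 (adjusted p = 0.0286), and this call was lost without the young 3D, young 14D, aged 3D or aged 14D library (log2 0.43 to 0.51, adjusted p = 0.0882 to 0.143). Between fibroblasts and endothelial cells 0 of 10 members passed, where 0.442% of all genes did. An unadjusted p under 0.05 was found for 3 of the 10, beside 1211 of all 14694 genes tested. Between fibroblasts and mural cells 0 of 10 passed, where 0.346% of all genes did. There 6 of the 10 had an unadjusted p under 0.05, beside 962 of all 14464 genes tested. Falls of Col4a1 and Col4a2 that passed in endothelial and mural cells but not in fibroblasts are therefore not shown to differ between these classes by this model with all 6 libraries (differences of -0.51 ± 0.27 and -0.67 ± 0.25 for endothelial cells, and of -0.59 ± 0.22 and -0.74 ± 0.23 for mural cells). Aged against young at TN, 3D and 14D by CPM, Col4a1 was at log2 0.49, -0.35 and 0.054 in fibroblasts. It was at -0.38, -0.67 and -0.45 in endothelial and -0.15, -0.68 and -0.80 in mural cells. Col4a2 was at 0.58, -0.21 and 0.095 in fibroblasts. It was at -0.49, -0.69 and -0.50 in endothelial and -0.37, -0.62 and -0.77 in mural cells. DESeq2 also called 0 members in both comparisons. Other settings did call members between fibroblasts and mural cells: Col4a2, Col4a5 and Col18a1 with no filter on low counts (-0.75, 0.94 and -0.69), Col4a2 within 3 median absolute deviations (-0.93) and Col4a5 with all barcodes over 200 genes (0.87). Without the aged 14D library 2 members passed between fibroblasts and endothelial cells, Col4a2 (-0.95, adjusted p = 0.0171) and Col15a1 (-0.74, adjusted p = 0.0204).

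**Figure D4:**
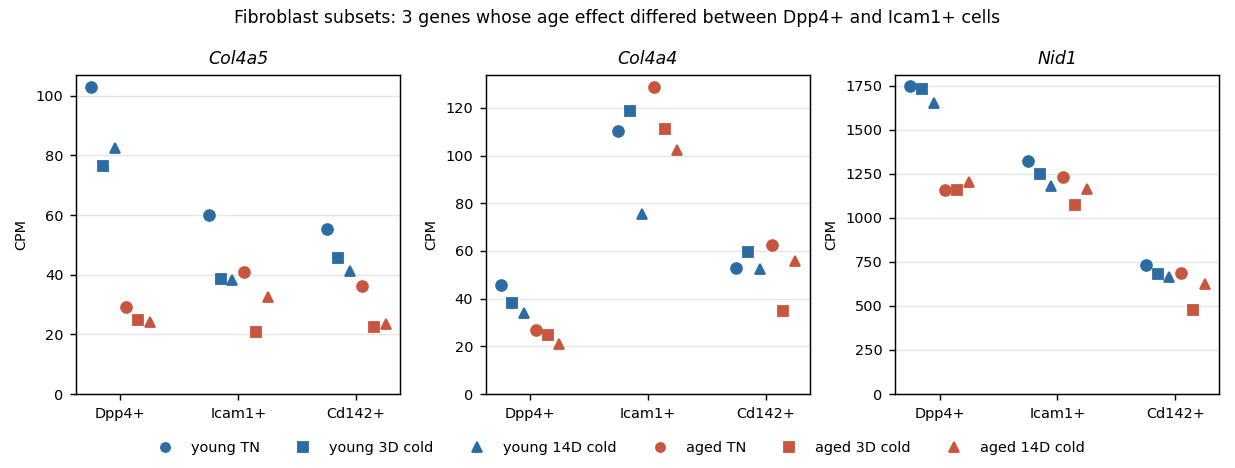
CPM of Col4a5, Col4a4 and Nid1 in Dpp4+, Icam1+ and Cd142+ fibroblasts of each library, with the axis starting at 0. In Dpp4+ cells every aged point lies below every young point for all 3 genes, while in Icam1+ cells the ages overlap.

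The cold exposures were compared with TN over 2 libraries each, 1 per age, with age as a term. A gene passed on a joint test of both cold conditions, and its 2 log2 fold changes against TN are given. In endothelial cells Col4a1 and Col4a2 passed, 2 of the 6 tested members beside 1.46% of all genes. The values listed above show Col4a1 highest at 14D at both ages, with -0.15 at 3D and 0.50 at 14D (adjusted p = 0.00788). Col4a2 had -0.088 at 3D and 0.47 at 14D (adjusted p = 0.0177). The 14D level of both genes was above the TN and the 3D level within each age. Each rests on both 14D libraries: the Col4a1 call was lost without the young 14D or aged 14D library (log2 0.47 to 0.53, adjusted p = 0.0743 to 0.0987), and the Col4a2 call without the young 14D or aged 14D library (log2 0.44 to 0.51, adjusted p = 0.132 to 0.186). Both calls were also lost when all barcodes over 200 genes were used and when cells were thinned to equal depth and number.

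In mural cells Nid1 and Col4a2 passed, 2 of the 8 tested members beside 5.56% of all genes. Nid1 rose 2.11-fold at 3D and 2.47-fold at 14D (log2 1.08 and 1.30, adjusted p = 1.66e-05), from 67.3 CPM at TN to 188 and 220.3 CPM in young, and from 89.5 to 154 and 180.0 CPM in aged libraries. The share of pericytes, which hold more Nid1, moved with the cold as well, from 12.3% of young and 21.5% of aged mural cells at TN to between 32.4% and 41.4% in the 4 cold libraries. Within each part the order TN, 3D, 14D was still rising at both ages, but with smaller steps: 262, 464 and 582 CPM in young and 298, 374 and 413 CPM in aged pericytes, and 48.1, 58.7 and 81.4 CPM in young and 48.7, 58.9 and 83.9 CPM in aged smooth muscle cells. Immune cells, read below as a measure of free RNA, held Nid1 at 0 to 49.9 CPM, from 46 UMIs. The part of free RNA in the smooth muscle values was not tested. The call stood in all 6 fits that left out 1 library and was lost with cells kept within 3 median absolute deviations, a setting that keeps few mural cells. Col4a2 rose in mural cells by 0.33 at 3D and 0.51 at 14D (adjusted p = 0.0221), and it lost its call without the young TN, young 14D or aged TN library (log2 0.35 to 0.63, adjusted p = 0.0557 to 0.564). Within the parts Col4a2 was at 310.1, 283 and 311 CPM in young and 210.1, 201 and 245 CPM in aged smooth muscle cells and at 698, 956 and 1454 CPM in young and 586, 573 and 629 CPM in aged pericytes, so that it was higher at 14D than at TN in pericytes of both ages and close to level in young smooth muscle cells.

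In Dpp4+ fibroblasts 8 of the 10 members passed, beside 8.85% of all genes, and 7 of these had values below TN at both cold times. Col18a1 was at 40.2, 24.5 and 31.7 CPM in young and 45.6, 24.8 and 32.2 CPM in aged TN, 3D and 14D libraries. It was lowest at 3D and between the others at 14D at both ages (log2 -0.81 and -0.40, adjusted p = 0.000413). Nid2 was lower at both cold times by nearly the same amount (log2 -0.46 and -0.45, adjusted p = 0.00523). Col15a1 had -0.61 at 3D and -0.25 at 14D (adjusted p = 0.035), and its 14D value turned to 0.019 without the aged TN library and to 0.16 in thinned cells. Col4a1, Col4a2, Col4a4 and Col4a5 passed with changes between -0.41 and -0.10, and the 14D value of Col4a2 turned to 0.14 in thinned cells. Col4a3 was higher in the cold (log2 0.76 and 0.35, adjusted p = 0.046) at a level of 2.01 to 5.15 CPM. Col18a1 and Nid2 kept their calls in all 6 fits that left out 1 library, Col15a1 lost it without the aged 3D library (log2 -0.24, adjusted p = 0.233), and the calls of 5 members were lost in 3 or 4 of the 6: Col4a1 without the young 3D, aged TN or aged 3D library (log2 -0.22 to -0.18, adjusted p = 0.0509 to 0.15), Col4a2 without the young TN, young 3D, aged TN or aged 3D library (log2 -0.17 to -0.034, adjusted p = 0.0531 to 0.409), Col4a3 without the young TN, young 3D, aged TN or aged 3D library (log2 0.26 to 0.56, adjusted p = 0.0942 to 0.351), Col4a4 without the young TN, young 3D or aged 3D library (log2 -0.37 to -0.30, adjusted p = 0.0689 to 0.246) and Col4a5 without the young TN, young 3D or aged 3D library (log2 -0.28 to -0.21, adjusted p = 0.0522 to 0.264). Nid1, lower with age in these cells, did not pass (log2 -0.028 and 0.0053, adjusted p = 0.938).

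In Icam1+ preadipocytes 4 of 9 tested members passed, beside 5.47% of all genes. Col4a3 was at 32.9, 49.9 and 24.7 CPM in young and 27.5, 37.3 and 22.7 CPM in aged libraries. It peaked at 3D and was lowest at 14D at both ages (log2 0.54 and -0.34, adjusted p = 0.00381), and the call stood in all 6 fits that left out 1 library. Its neighbour Col4a4 did not pass (log2 -0.026 and -0.43, adjusted p = 0.0833). Col4a5 was lower in the cold (log2 -0.77 and -0.49, adjusted p = 0.0207), and so was Nid2 (log2 -0.48 and -0.48, adjusted p = 0.0175), which lost its call without the young 3D library (log2 -0.47, adjusted p = 0.0603). Col18a1 was lower at 3D (log2 -0.52) and back near its TN level at 14D (log2 -0.029, adjusted p = 0.0286); the 14D value was 0.13 without the aged 14D library, and the call was lost without the young 3D library (log2 -0.033, adjusted p = 0.422). Col4a1 and Col4a2, at their highest in these cells, did not pass (adjusted p = 0.698 and 0.974).

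In Cd142+ fibroblasts Col18a1 and Col15a1 passed, 2 of 9 tested members beside 3.06% of all genes. Both were lowest at 3D, with -0.78 and -0.44 for Col18a1 (adjusted p = 0.00312) and -0.86 and -0.33 for Col15a1 (adjusted p = 0.00538). Col18a1 lost its call without the aged TN library (log2 -0.28, adjusted p = 0.162) and Col15a1 without the aged TN library (log2 0.044, adjusted p = 0.102), so both rest on the aged TN library. Over all fibroblasts 1 of 10 members passed, Col4a5 (log2 -0.62 and -0.41, adjusted p = 0.033), beside 1.14% of all genes, and it lost its call without the young 3D, young 14D, aged 3D or aged 14D library (log2 -0.45 to -0.39, adjusted p = 0.0519 to 0.172). Whether the response to cold differed between ages cannot be tested with 1 library per age and condition.

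**Figure D5:**
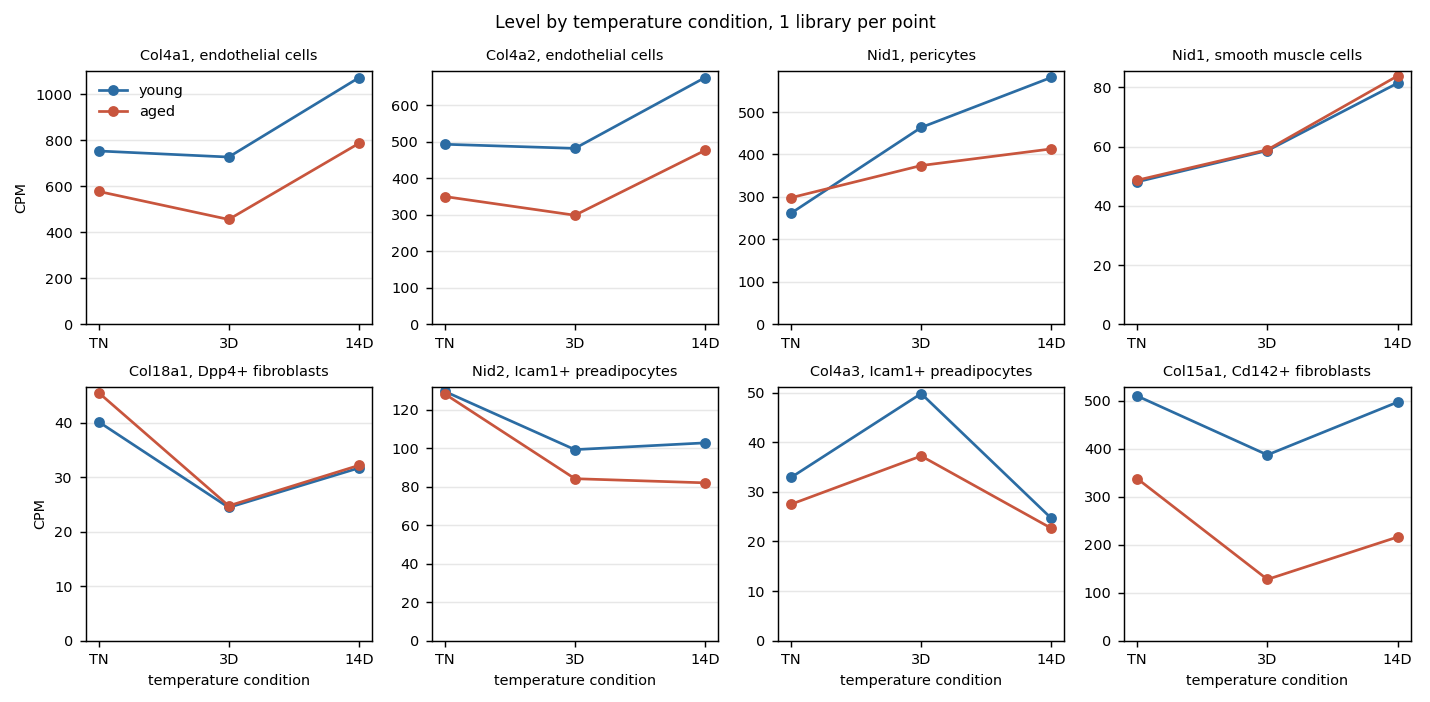
CPM at TN, 3D and 14D for 8 pairs of gene and class, 1 library per point, young in blue and aged in red, with each axis starting at 0. Col4a1 and Col4a2 are highest at 14D in endothelial cells, Nid1 climbs in pericytes and in smooth muscle cells, Col18a1 is lowest at 3D in Dpp4+ cells, and Col4a3 peaks at 3D in Icam1+ cells.

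Genes that work with the members were read from 4 lists, whose counts stand beside 9.15%, 5.44%, 4.46%, 5.27%, 0.850% and 0.912% of all genes called lower with age in Dpp4+, Icam1+ and Cd142+ cells, all fibroblasts, endothelial and mural cells. Called in either direction were 17.9%, 12.2%, 9.75%, 10.9%, 1.66% and 2.75% in the same order. Of the 18 genes of the laminin and perlecan group, the laminin chains and other proteins that share the basement membrane with collagen IV, 11 were lower and 1 higher among the 15 tested in aged Dpp4+ fibroblasts (median log2 -0.40). The 3 that changed most there were Lamb3 (-2.06 ± 0.18), Sparc (-1.73 ± 0.087), a collagen-binding matrix protein, and Fbln1 (-1.49 ± 0.083). In Cd142+ fibroblasts 6 of 12 were lower and 2 higher, led by Sparc (-1.44), Lamc3 (1.05) and Fbln2 (0.57). In Icam1+ preadipocytes 3 of 13 were lower and 2 higher, with Fbln1 at -0.52, Lamb2 at 0.38 and Lamb1 at -0.37. Sparc was also lower in aged endothelial cells (-0.55 ± 0.071, adjusted p = 0.00162), where 2 of 13 passed, the other being Lamb1 (-0.71), and it was the 1 gene of 11 that passed in mural cells (-0.54 ± 0.085, adjusted p = 0.000519). Over all fibroblasts 6 of 16 were lower, with Lamb3 at -2.02, Fbln1 at -1.01 and Sparc at -0.98.

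The list of collagen IV assembly and crosslinking holds 19 genes, among them chaperones and hydroxylases of the collagen chain. In aged Dpp4+ fibroblasts 13 of 18 tested were lower and none higher (median -0.45), with Serpinh1, the collagen chaperone, at -0.74 ± 0.068, Creb3l1 at -0.71 ± 0.077 and the prolyl hydroxylase P3h1 at -0.66 ± 0.079. In Cd142+ fibroblasts 10 of 17 were lower and none higher, with Serpinh1 at -0.73, Creb3l1 at -0.68 and P3h1 at -0.68. In Icam1+ preadipocytes 7 of 17 were lower and none higher, with the lysyl hydroxylase Plod2 at -0.55, the lysyl oxidase Loxl1 at -0.53 and Serpinh1 at -0.39. Over all fibroblasts 8 of 19 were lower, with Loxl1 at -0.63, Creb3l1 at -0.51 and Serpinh1 at -0.50. In aged endothelial cells the median of the 18 tested was -0.14, with Serpinh1 at -0.34 ± 0.082 (adjusted p = 0.0565). In aged mural cells Serpinh1 alone passed, of 18 (-0.35 ± 0.09, adjusted p = 0.033). Many of these enzymes act on all collagens.

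Of the 13 receptors of basement membrane, 1 was higher and 2 lower among the 12 tested in aged Dpp4+ fibroblasts. Elsewhere 1 of 12 passed over all fibroblasts, 1 of 7 in Cd142+, 1 of 12 in Icam1+, 1 of 10 in mural and 0 of 11 in endothelial cells. Nothing particular to the list is read from these counts beside the shares of all genes given above. Among the 13, Itga2, an integrin chain that binds collagen, was lower in aged Dpp4+ fibroblasts (-0.65 ± 0.087) with Itgb1 (-0.22), while Ddr2, a kinase receptor for collagen, was at 0.20. Over all fibroblasts Itga2 alone passed (-0.78), in Cd142+ fibroblasts Ddr2 (0.34), in Icam1+ preadipocytes Itga7 (-0.37) and in mural cells Cd93 (-1.54), a gene known from endothelium, in a class whose endothelial markers summed to 51.6 to 66.7 CPM in aged and 15.1 to 42.0 CPM in young libraries.

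Of the 17 proteases and inhibitors that act on basement membrane, more were higher than lower with age in fibroblast subsets. In Dpp4+ fibroblasts 8 were higher and 4 lower of 15 tested (median 0.21), led by the inhibitor Timp4 (1.2 ± 0.32) and the metalloproteinases Mmp11 (0.86 ± 0.12) and Mmp3 (0.53 ± 0.085). In Icam1+ preadipocytes 4 were higher and 2 lower of 15, with Timp4 at 1.55, Timp3 at 1.00 and Mmp11 at 0.83. In Cd142+ fibroblasts 4 were higher and 3 lower of 14, with Mmp11 at 1.42, Timp3 at 0.91 and Ctsk, the lysosomal protease cathepsin K, at 0.65. Over all fibroblasts the leading genes were Mmp11 (1.07), Timp3 (0.64) and Ctsk (0.55), of 3 higher and 3 lower. In mural cells Timp3 (0.55 ± 0.077) and Adamts1 (0.45 ± 0.086) were higher and Htra1 (-0.49 ± 0.10) lower, and in endothelial cells Adamts1 alone passed (0.34 ± 0.08).

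For temperature, proteases and inhibitors called were mostly higher at 14D: 4 of 14 tested in Cd142+ fibroblasts, 4 of 14 in mural cells with 1 lower, 3 of 16 in endothelial cells and 3 of 15 in Icam1+ preadipocytes, with 1 of 15 higher in Dpp4+ fibroblasts and 1 of 16 over all fibroblasts. The shares of all genes called in either direction were 3.06%, 5.56%, 1.46%, 5.47%, 8.85% and 1.14% in the same order. Timp4 passed in mural and endothelial cells (0.52 and 0.19) and Mmp11 in Cd142+ and Icam1+ cells (0.64 and 0.22). In mural cells, where Nid1 rose, 3 of 18 assembly genes tested were higher at 14D (Loxl2, P4ha1 and Serpinh1, at 1.2, 0.90 and 0.51) and 3 of 11 genes of the laminin group (Lama2, Lamb1 and Sparc, at 1.58, 1.13 and 0.68), with Lama5 at -0.51. In Icam1+ preadipocytes 2 of 17 assembly and 2 of 13 laminin group genes were lower and none higher. Of the assembly genes, 2 were higher and 2 lower of 18 in Dpp4+ cells, and 1 higher and 2 lower of 17 in Cd142+ cells. The laminin group had 1 lower and none higher in each of these 2 subsets. In endothelial cells Sparc (0.64) and Serpinh1 (0.36) were higher at 14D beside Col4a1 and Col4a2. These partner genes for temperature were picked with their values in view.

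At equal depth the share of cells with a UMI kept the order of Icam1+ over Dpp4+ cells but not the order of the major classes. After each cell was thinned to 2000 UMIs, Col4a1 was detected in 97.9% to 99.1% of Icam1+ preadipocytes and 21.3% to 33.2% of Dpp4+ fibroblasts over the 6 libraries (99.3% to 100.0% and 48.4% to 72.1% before thinning). Over fibroblasts, endothelial cells and mural cells as wholes the thinned Col4a1 shares overlapped, at 57.5% to 71.7%, 54.6% to 77.4% and 59.0% to 77.0%, so no order of these classes was read from them. Col4a1 was detected in 0% to 9.52% of immune cells, a class not known to make it and here a measure of free RNA. For Col4a5 the thinned shares were 4.36% to 16.6% of Dpp4+ fibroblasts and 0% to 1.43% of immune cells (14.5% to 52.4% and 0% to 2.17% before thinning). Nid1 was detected in at least 94.5% of young and at most 87.2% of aged Dpp4+ fibroblasts of any library at this depth. Col4a6 was detected in 0.602% to 3.6% of smooth muscle cells and in none of the thinned immune cells. Endothelial Col4a4 and Col4a5 were at 0% to 0.78% and 0% to 0.975%, beside 0% to 4.76% and 0% to 1.43% of immune cells, where each highest share was 1 cell (of 21 and of 70). These few cells do not set a background for the 2 genes. Median UMIs per cell ran from 6430 to 10123 in fibroblasts, 3122 to 3815 in endothelial cells and 3901 to 6933 in immune cells before thinning.

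Likeness of pattern was measured as Pearson's r of log2(CPM + 1) over the 24 sums of 4 classes and 6 libraries, among 10393 genes with at least 10 CPM in a class. The sums of 1 library share its depth and handling, and r is given as a description. Among the members, Col4a1 and Col4a2 were the most alike (r = 0.881), followed by Col4a1 and Nid1 (r = 0.877), and Col4a4 and Nid1 (r = 0.86). The 2 other head-to-head pairs had r = 0.64 for Col4a3 with Col4a4 and r = 0.76 for Col4a5 with Col4a6. Of all genes, those most like Col4a1 were Ssr3, Prrx2 and C3 (r = 0.89, 0.89 and 0.88), and those most like Col4a2 were Col4a1, Ackr3 and Slc29a1 (r = 0.88, 0.85 and 0.84). For Col4a3 they were Wnt11, Ccdc122 and Zfp385a, for Col4a4 Fbln7, Gpnmb and Ssc5d, and for Col4a5 Obsl1, Hoxc9 and Pi15 (highest r = 0.97, 0.92 and 0.99). For Col15a1 they were Slc43a3, Tgfbr2 and Selenop, and for Col18a1 Tspan3, Stk39 and Hmgn3 (highest r = 0.95 and 0.93). For Nid1 they were Fbn1, itself a fibroblast marker of the gate, Htra3 and P4hb, and for Nid2 Sfrp1, Slc44a1 and Pdlim4 (highest r = 0.95 and 0.96).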

How the data were processed

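Single-cell RNA sequencing (10x) of CD45-depleted iWAT stromal vascular cells was deposited as 1 matrix of raw UMI counts per library, which the authors made with Cell Ranger (3.1.0 in the matrix header) on mm10. The submitters' processing notes also name R 4.1.1 and Seurat. Library totals ran from 52068837 to 88508349 UMIs, and floors cover counting error only.

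Barcodes with 1000 to 7000 genes and at most 10% mitochondrial UMIs were kept. Limits of 3 median absolute deviations per library had been planned as the main setting, and these were exchanged on cell numbers after the data were seen, because they kept 21.4% of mural barcodes against 56.4%. Cells with at least 6 of 10 fibroblast markers, or 4 of 10 of another class, entered that class, and 1995 cells that met 2 or more gates entered none. Subsets needed 5 of 10 markers and a lead of 2. No doublet caller was run. Classes with under 20 cells in a library were not tested for age or temperature. UMIs were summed per library and class and tested with edgeR 4.0.16 (R 4.3.3; TMM factors, filterByExpr, quasi-likelihood F test), with Benjamini-Hochberg adjustment over all genes tested and a threshold of 0.05. A temperature log2 fold change is 14D against TN unless 3D is named. The scripts were tested on simulated sums in which 200 genes were changed. Of the calls made there, 3.75% to 9.68% were false for age and 0% to 19.9% for temperature. For the difference of age effects 6.67% to 21.7% were false. A 1.41-fold change was recovered in 18% to 70% of genes for age. For the difference of age effects it was recovered in 8% (fibroblasts, endothelial cells), 5% (fibroblasts, mural cells) and 23% (Dpp4+, Icam1+ cells). Promoter windows came from RefSeq (GRCm38.p6). The text names all 10 members, up to 3 genes per partner list and class past the threshold for age by size of change, and the 3 genes most like each member with at least 10 CPM in a class. The members, lists and tests were chosen with earlier results of these data known. DESeq2 1.42.0, RLE in place of TMM factors, all genes with a UMI, omission of the second factor, thinning to 2000 UMIs in equal cell numbers, stricter gates, other cell limits and omission of each library were tried as alternatives.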

Additional observations from a re-analysis of the deposited data

Results flagged for a closer look

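The age effects of 3 members differed between 2 fibroblast subsets by a direct test of that difference (edgeR, Icam1+ preadipocytes minus Dpp4+ fibroblasts, 6 libraries). The difference was 0.93 on the log2 scale for Col4a4 (adjusted p = 0.00648), with an age effect of -0.72 in Dpp4+ and 0.20 in Icam1+ cells. For Col4a5 it was 1.22 (adjusted p = 0.00581), with -1.76 and -0.55. For Nid1 it was 0.48 (adjusted p = 0.0286), with -0.58 and -0.11, and the Nid1 call was lost without the young 3D, young 14D, aged 3D or aged 14D library (log2 0.43 to 0.51, adjusted p = 0.0882 to 0.143) and in thinned cells.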

How the results depend on the processing

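Of the 20 calls for age, all kept their sign and 5 kept their call in all 14 alternatives: Col4a5 in fibroblasts, Dpp4+ and Cd142+ cells, and Col4a4 and Nid1 in Dpp4+ cells. Of the 19 calls for temperature 0 kept their call in all, and of 66 between classes 61 did. Leaving out the other factor lost more calls for age and temperature than any other single setting: without the temperature term 14 age calls were lost, leaving 1, 0, 0, 4, 0 and 1 members called in fibroblasts, endothelial, mural, Dpp4+, Icam1+ and Cd142+ cells, and without the age term 18 temperature calls were lost, leaving 0, 0, 1, 0, 0 and 0. In cells thinned to equal depth and number the age count was 0 in mural and 4 in Cd142+ cells, the temperature count 0 in endothelial, 1 in mural, 4 in Dpp4+ and 1 in Cd142+ cells, and 3 members differed between endothelial and mural cells. With cells within 3 median absolute deviations, the limits first planned as the main setting, the count in mural cells was 0 for age and 0 for temperature, it was 1 for temperature in endothelial cells, and 1 for the difference of age effects between fibroblasts and mural cells. With all barcodes over 200 genes, added after the data were seen, it was 1 for age and 0 for temperature in endothelial cells, 1 for temperature in mural cells and 1 for that difference. DESeq2 called 5, 1, 4 and 0 members for temperature in fibroblasts, mural, Dpp4+ and Cd142+ cells, and a stricter gate 1 in mural cells. With no filter on low counts 4 members were called for age in Cd142+ cells, 5 for temperature in fibroblasts and 3 for the difference between fibroblasts and mural cells. Over all settings tried the number of all genes called moved too, so no count here is read as a result about the members. For age it was 361 to 2181 in fibroblasts, 18 to 527 in endothelial and 5 to 477 in mural cells. In Dpp4+, Icam1+ and Cd142+ cells it was 726 to 2895, 243 to 2291 and 282 to 1197. For the difference of age effects it was 17 to 264 (fibroblasts, endothelial cells) and 41 to 227 (fibroblasts, mural cells). The number for temperature also moved. Leaving out 1 library moved the age counts to between 1 and 5 in fibroblasts, 1 and 4 in endothelial, 2 and 3 in mural, 4 and 7 in Dpp4+, 1 and 4 in Icam1+ and 2 and 4 in Cd142+ cells. It moved the temperature counts to between 0 and 8, 0 and 3, 1 and 3, 2 and 8, 2 and 6, and 0 and 5 in the same order, and the count for fibroblasts against endothelial age effects to between 0 and 2. The sign of 14D against TN turned for Col4a2 and Col15a1 in thinned Dpp4+ cells (0.14 and 0.16), for Col15a1 without the aged TN library in Dpp4+ (0.019, in a range of -0.57 to 0.019 over the omitted libraries) and Cd142+ cells (0.044, range -0.71 to 0.044), and for Col18a1 in Icam1+ cells without the aged TN (0.0029) or the aged 14D library (0.13, range -0.20 to 0.13). Nid1 turned for endothelial against mural cells (-0.76, adjusted p = 0.00023) and mural against Schwann cells (0.70, adjusted p = 0.0147) within 3 median absolute deviations, where both passed. Col4a6 turned for endothelial against Schwann cells with DESeq2 (-4.49). Beyond what the settings remove by construction, the cause was not tested. With 1 library per age and temperature and 2 residual degrees of freedom, depth limits Schwann cells most.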
